A study of Mus musculus with 4 samples.

Results

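The genes examined here are 10 type 2 cytokine and effector genes that are associated, though not exclusively, with group 2 innate lymphoid cells (ILC2s). They were measured in small intestinal group 3 innate lymphoid cells (ILC3s) with and without Brg1. They are the cytokine genes Il4, Il5 and Il13, the receptor genes Il1rl1, Il17rb, Il9r and Ccr8, the genes for the secreted factors Areg and Calca, and the enzyme gene Arg1. Each was found once, by its symbol, among the 53379 genes of the deposited table. The 10 genes were selected on their FPKM (fragments mapped to a gene, scaled to its transcript length and to the mapped fragments of the library) in the same 4 libraries described below, by the contrast of the genotypes and by the contrast of the 2 Brg1-sufficient libraries with each other. Both contrasts are therefore given for them as a description, with no test.

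ILC2s and ILC3s are tissue-resident lymphocytes without antigen receptors. ILC2s depend on the transcription factors GATA3 and RORα, respond to the epithelial alarmins IL-33 and IL-25, and release IL-5, IL-13 and amphiregulin, which drive eosinophil recruitment, mucus production, responses to worms and tissue repair. ILC3s respond to IL-23 and IL-1β, and release IL-22, IL-17 and GM-CSF. Brg1, encoded by Smarca4, is the ATPase subunit of the BAF complex, which uses ATP to move nucleosomes and so changes which regulatory DNA is open.

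In the study, equal numbers of bone marrow cells of 2 donor genotypes were mixed and transferred into sub-lethally irradiated Rag2-/- Il2rg-/- mice, which lack T cells, B cells and innate lymphoid cells of their own. Brg1-sufficient donors were Thy1.2 Rag1-/- Smarca4 f/f, and Brg1-deficient donors were Thy1.1 Thy1.2 Rag1-/- Smarca4 f/f with a deleting allele in addition, so that both carried floxed Smarca4 and lacked Rag1. After 6 to 7 weeks ILC3s were sorted from the small intestinal lamina propria as Thy1.2 high CD45 low cells, negative for Thy1.1 for the Brg1-sufficient origin and positive for the Brg1-deficient origin. RNA-seq was made on 2 libraries per group, which the study calls biological duplicates; they are called WT 1 and 2 (Brg1-sufficient) and KO 1 and 2 (Brg1-deficient). The ages of the mice and the number of hosts behind each library were not given in the sources used here, and the congenic marker differs between the groups together with the genotype.

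Smarca4 was at 17.1 and 16.7 FPKM in WT libraries 1 and 2 and at 9.98 and 9.03 FPKM in the KO libraries. The log2 fold change was -0.77 (SE 0.16, adjusted p = 0.15 by limma). These FPKM count all exons of the gene and do not separate the floxed part. Defining ILC3 genes were present in all 4 libraries. Il22 was at 8328 FPKM or more in each, and Il23r, a chain of the IL-23 receptor, at 209 FPKM or more. Read depth is unknown, since FPKM do not hold it, and no counting interval could be given. Sorted from lowest to highest, 99.3% of the FPKM ranks with a mean above 1 differed by less than 1% between the libraries, so a difference in total RNA between groups is not in these values.

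Promoter sequences of 6 of the 10 genes are shown here, the 3 cytokine genes because they share a locus, Calca and Ccr8 because their FPKM differed by the largest factors between the groups, and Il1rl1 because it had the most matches to the motif searched. Each spans 250 bases before to 50 bases after the RefSeq start site on GRCm38.p6 and is written 5′ to 3′ on the strand of the gene. Capitals mark matches to the GATA words, which are AGATAA or AGATAG and likewise TGATAA or TGATAG, on either strand, a sequence that GATA3 and its relatives can bind. Il4 lies at chr11:53618616-53618915 on the minus strand, Il13 at chr11:53634653-53634952 on the minus strand, Il5 at chr11:53720544-53720843 on the plus strand, Il1rl1 at chr1:40429320-40429619 on the plus strand, Calca at chr7:114636308-114636607 on the minus strand and Ccr8 at chr9:120091883-120092182 on the plus strand.
Il4: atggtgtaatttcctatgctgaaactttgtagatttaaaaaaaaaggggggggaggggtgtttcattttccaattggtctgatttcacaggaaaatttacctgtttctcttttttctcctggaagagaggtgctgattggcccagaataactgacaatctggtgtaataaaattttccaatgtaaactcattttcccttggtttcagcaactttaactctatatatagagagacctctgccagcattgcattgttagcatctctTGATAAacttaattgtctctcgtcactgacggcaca
Il13: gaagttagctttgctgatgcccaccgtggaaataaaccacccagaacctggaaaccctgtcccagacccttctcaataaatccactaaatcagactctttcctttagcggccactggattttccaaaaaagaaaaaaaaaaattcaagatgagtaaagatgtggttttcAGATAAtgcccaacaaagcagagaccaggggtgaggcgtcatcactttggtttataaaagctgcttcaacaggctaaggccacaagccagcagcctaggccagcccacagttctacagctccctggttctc
Il5: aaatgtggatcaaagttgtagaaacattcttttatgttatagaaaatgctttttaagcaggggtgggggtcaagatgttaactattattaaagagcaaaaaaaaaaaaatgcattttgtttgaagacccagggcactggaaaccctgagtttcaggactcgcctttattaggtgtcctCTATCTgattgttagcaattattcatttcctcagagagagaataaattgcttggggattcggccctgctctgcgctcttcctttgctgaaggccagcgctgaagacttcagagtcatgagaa
Il1rl1: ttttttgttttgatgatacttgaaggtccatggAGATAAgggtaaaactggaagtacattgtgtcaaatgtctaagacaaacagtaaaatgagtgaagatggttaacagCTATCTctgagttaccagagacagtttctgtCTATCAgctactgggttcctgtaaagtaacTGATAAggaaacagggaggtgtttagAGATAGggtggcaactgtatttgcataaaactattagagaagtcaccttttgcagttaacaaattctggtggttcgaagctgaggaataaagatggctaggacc
Calca: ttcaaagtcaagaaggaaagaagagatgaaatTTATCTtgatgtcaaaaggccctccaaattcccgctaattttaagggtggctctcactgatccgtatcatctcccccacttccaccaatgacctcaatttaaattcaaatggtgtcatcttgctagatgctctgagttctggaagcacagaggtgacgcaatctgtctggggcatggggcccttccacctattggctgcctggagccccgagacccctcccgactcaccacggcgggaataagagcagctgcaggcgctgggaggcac
Ccr8: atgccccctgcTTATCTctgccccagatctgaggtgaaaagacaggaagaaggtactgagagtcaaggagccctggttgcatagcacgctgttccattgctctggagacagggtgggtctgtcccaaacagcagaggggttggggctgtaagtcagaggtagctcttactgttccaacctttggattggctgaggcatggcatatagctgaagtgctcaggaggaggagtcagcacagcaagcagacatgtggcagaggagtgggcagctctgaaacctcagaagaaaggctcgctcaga

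A promoter was found for 9 of the 10 genes, all but Arg1. Of these 9 promoters, 7 held a GATA word, against 29.8% of the 32851 promoters in the RefSeq table. Il1rl1 held 5 matches, the farthest 217 bases and the nearest 54 bases before the start. Il9r held 2, at 223 and 30 bases before the start, and single matches lay 72 bases before the start of Il5, 81 before Il13, 218 before Calca and 239 before Ccr8. The only match of Il4 lay 14 bases after its start, and Il17rb and Areg held none. The GATA words are rich in A and T, and the share over all promoters was not matched for base content. G and C made up 38.0% (Il4) to 54.3% (Il9r) of the 7 promoters with a match, 59.3% of that of Areg and 72.0% of that of Il17rb. Whether the 7 exceed promoters of like base content was not tested. Other words were in fewer of the 9 promoters. The word GGAAA, the core of NFAT sites, was in 6 of the 9 promoters and in 61.3% of all, whereas the STAT word TTCNNNGAA, also counted with 1 more base in its centre, was in 1 (14.6% of all), the AP-1 word TGANTCA in 1 (7.81% of all) and the ROR word AGGTCA in 1 (16.3% of all). A match describes the letters of these windows, and binding of a factor was not measured in these libraries.

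All 10 genes had a lower FPKM in both KO libraries than in both WT libraries, which is one of the contrasts the set was selected on. A filter kept the 14739 genes that averaged more than 1 FPKM in the WT or the KO libraries, and of these 20.2% were lower in this way and 24.4% were higher. It kept 9 of the 10 genes and left out Il13. The median log2 fold change of the 10 genes on the log2(FPKM + 1) scale, Brg1-deficient minus Brg1-sufficient, was -2.47, with a range from -4.67 to -0.81, and the median over all genes tested was 0.03. Their summed FPKM was 338 and 140.4 in WT libraries 1 and 2 and 29.0 and 28.7 in the KO libraries. In RNA from a pool of cells, fewer cells of a type and less RNA per cell cannot be told apart.

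**Figure D1:**
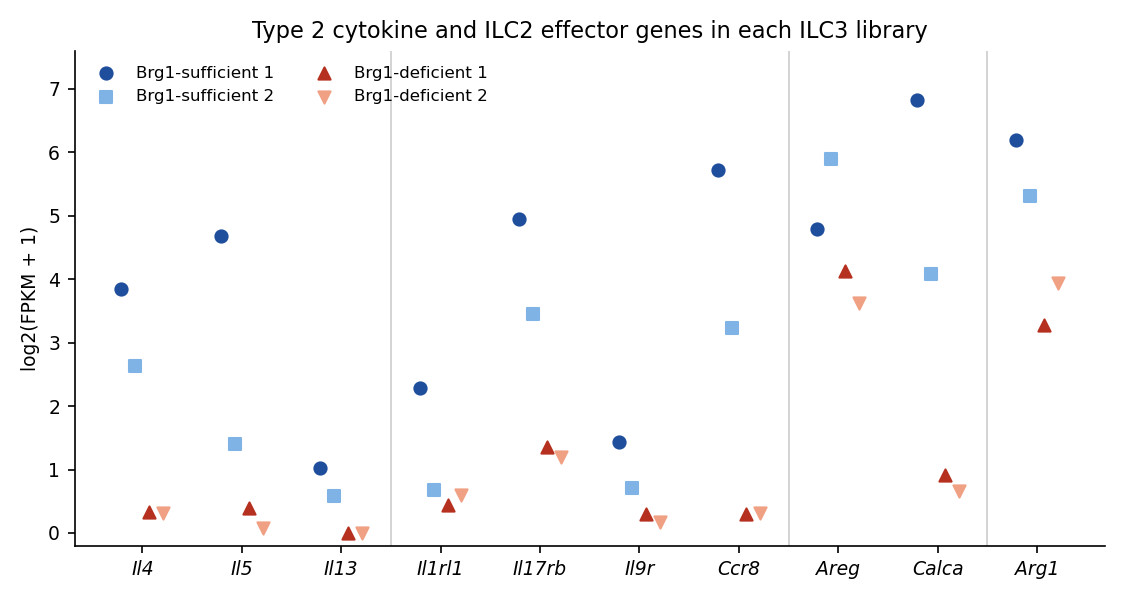
Level of each of the 10 genes in each library, on the y axis as log2(FPKM + 1); points are single libraries, and grey lines separate cytokines, receptors, secreted factors and the enzyme. Red points (Brg1-deficient) lie below both blue points for every gene, and the dark blue point (WT library 1) lies above the light blue point for all genes except Areg.

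The WT libraries were far apart for the same genes. In WT library 1, 9 of the 10 genes were higher than in library 2, and 8 were more than 2-fold higher, where 8.09% of all genes tested were. One gene, Areg, was more than 2-fold higher in library 2, where 8.96% of all genes tested were. The median difference of library 1 minus library 2 was 1.36 for the 10 genes and -0.02 for all genes tested (log2(FPKM + 1)). For Il5, Il1rl1 and Il9r, 3 of the 10 genes, the gap between the WT libraries was larger than the gap from WT library 2 down to the KO mean. The KO libraries were closer to each other: Il5 alone was more than 2-fold higher in library 1 (5.33% of all genes tested), and 0 of the 10 were more than 2-fold higher in library 2 (5.77% of all genes tested). A step down at both points, from WT library 1 to 2 by more than 2-fold and from WT library 2 to both KO libraries, was shown by 7 of the 9 genes that passed the filter and by 1.34% of all genes tested. Without WT library 1 the median log2 fold change of the 10 genes was -1.87, and without library 2 it was -3.05.

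**Figure D2:**
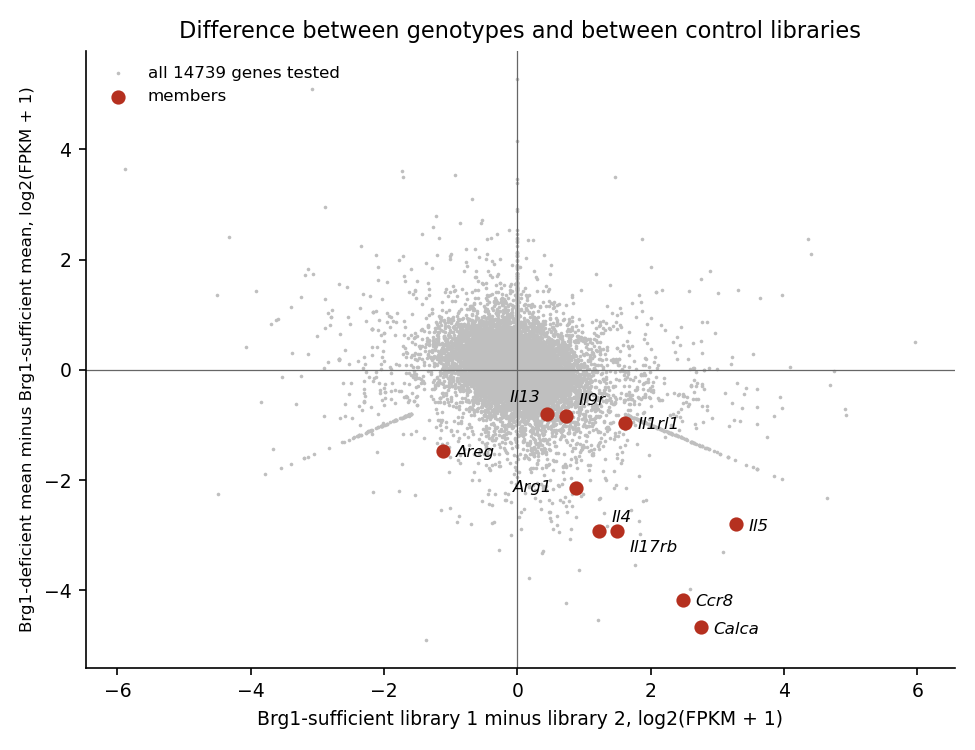
The x axis shows WT library 1 minus library 2 and the y axis the KO mean minus the WT mean, both in log2(FPKM + 1); grey points are the 14739 genes tested and red points the 10 selected genes. The red points all lie below 0 on the y axis, and 9 of the 10 lie right of 0 on the x axis, with Areg on the left; Il13 is drawn although it did not pass the filter. Straight lines of grey points are genes near 0 FPKM in all libraries but one.

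Il4, Il13 and Il5 form the type 2 cytokine locus on chromosome 11, and their products act on B cells, epithelium and eosinophils. Il4 (11:53602982-53618669, minus strand), whose cytokine drives class switching to IgE and alternative macrophage activation, was at 13.4 and 5.18 FPKM in WT libraries 1 and 2 and at 0.26 and 0.24 FPKM in KO libraries 1 and 2. The groups were far apart: the lower WT library was 19.9 times the higher KO library, and the means were 9.29 ± 5.81 and 0.25 ± 0.014 FPKM (SD, n = 2). Its WT libraries differed 2.59-fold.

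Il5 (11:53720794-53725106, plus strand) encodes the growth and survival factor of eosinophils. It was at 24.8 FPKM in WT library 1 but only 1.64 FPKM in library 2, and at 0.32 and 0.06 FPKM in the KO libraries. Gm12214, an antisense gene that overlaps it, was at 0.01 FPKM or less in every library. The ratio of 15.1 between the WT libraries was the largest among the 10 genes, and the mean of 13.2 ± 16.4 FPKM (SD, n = 2) therefore stands for neither library. WT library 2 was 8.63 times the KO mean, and WT library 1 was 130.3 times that mean. Il13 (11:53631324-53634702, minus strand), whose cytokine acts on goblet cells and tuft cells, was at 1.04 and 0.50 FPKM in the WT libraries and was listed at 0 in both KO libraries. No fold is given against 0, and the mean of 0.77 ± 0.38 FPKM (SD, n = 2) was the lowest of the 10 genes.

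The starts of Il4 and Il5 lie 16 and 86.1 kb from the start of Il13, and Rad50, a DNA repair gene, lies between Il13 and Il5 with its start 72.6 kb from that of Il13. Rad50 was at 20.9 and 20.2 FPKM in the WT and at 26.2 and 33.7 FPKM in the KO libraries, so that it was higher without overlap where the genes on either side of it were lower (log2 fold change 0.51, SE 0.18, adjusted p = 0.34 by limma). Kif3a, a kinesin gene next to Il4, overlapped between the groups, with 18.4 and 22.5 against 18.6 and 21.9 FPKM. Of the 18 neighbours listed around the 3 cytokine genes, 13 passed the filter, and limma called 0 of them (adjusted p under 0.05), against 0 lower and 3 higher at an unadjusted p under 0.05. Over all genes tested, limma called 0.224% lower and 0.0814% higher.

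By level, the leading neighbours were Csf2, Irf1 and Uqcrq. Csf2, which encodes GM-CSF and starts 615 kb from Il13, was at 245 and 199.7 FPKM in the WT and at 564 and 638 FPKM in the KO libraries (log2 fold change 1.44, SE 0.16, adjusted p = 0.057 by limma). It was higher without overlap, where the 3 cytokine genes were lower. Irf1, an interferon-response factor 135.3 kb from Il13, was at 152 and 232 against 213 and 236 FPKM, and Uqcrq, a subunit of respiratory complex III, was at 215 and 185 against 218 and 213 FPKM. The groups overlapped for both of these genes.

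**Figure D3:**
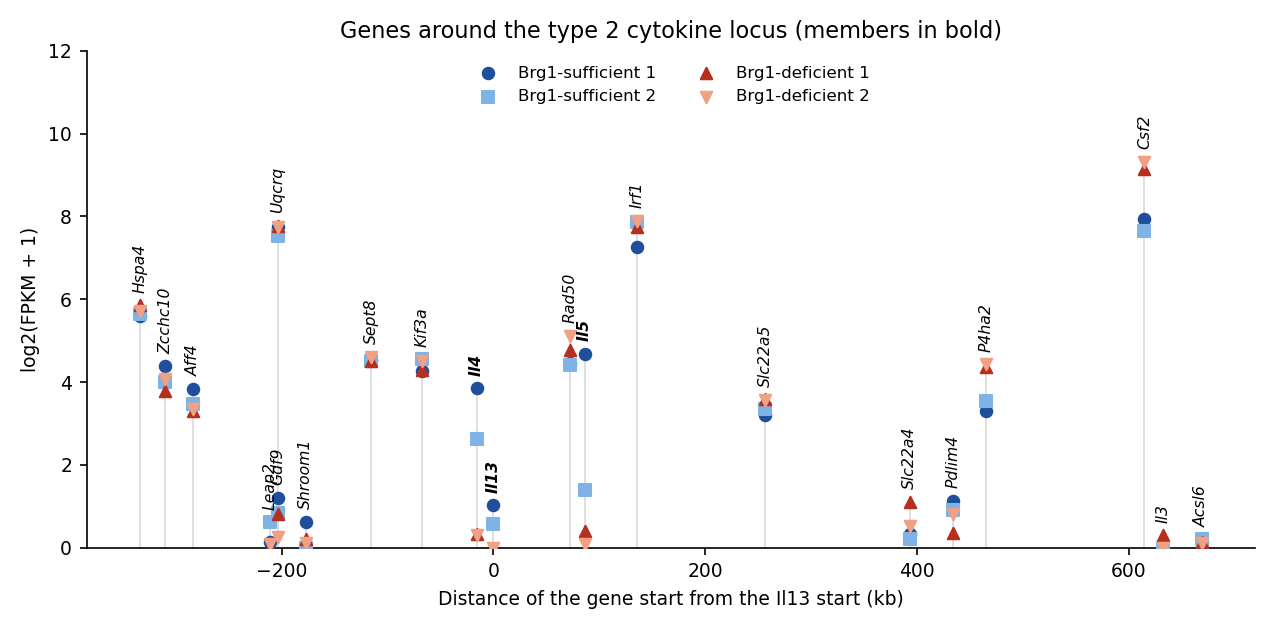
Genes around Il13, with the distance of each gene's start from the Il13 start in kb on the x axis and the level as log2(FPKM + 1) on the y axis; points are the 4 libraries, and the 3 cytokine genes are in bold. Il4, Il13 and Il5 show the blue control points above the red Brg1-deficient points, whereas Rad50 and Csf2 show the reverse order and Kif3a overlaps.

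The receptor genes let ILC2s sense alarmins, a growth cytokine and a chemokine. Il1rl1 (1:40429570-40465415, plus strand) encodes ST2, the receptor for IL-33, and was at 3.88 and 0.60 FPKM in WT libraries 1 and 2 and at 0.36 and 0.51 FPKM in the KO libraries. Library 1 alone stood apart, since WT library 2 was 1.18 times the higher KO library. The means were 2.24 ± 2.32 and 0.44 ± 0.11 FPKM (SD, n = 2). On the log2(FPKM + 1) scale its fold change was -0.96 with both WT libraries and -0.16 without library 1.

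Il17rb (14:29996135-30008896, minus strand), which encodes a chain of the IL-25 receptor, was at 29.9 and 9.96 FPKM in the WT and at 1.55 and 1.29 FPKM in the KO libraries. Both WT libraries were well above both KO libraries, by 6.43-fold between the nearest of them, with means of 19.9 ± 14.1 and 1.42 ± 0.18 FPKM (SD, n = 2). The gene overlaps Actr8, on the opposite strand, and reads of overlapping genes may not be told apart without strand; Actr8 was at 29.55 and 30.7 FPKM in the WT and at 25.95 and 27.7 FPKM in the KO libraries. Il9r (11:32187541-32200279, minus strand), the receptor for the ILC2 survival cytokine IL-9, was at 1.71 and 0.63 FPKM in the WT and at 0.23 and 0.13 FPKM in the KO libraries. It was a low gene throughout, with means of 1.17 ± 0.76 and 0.18 ± 0.071 FPKM (SD, n = 2).

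Ccr8 (9:120092114-120094906, plus strand) encodes the receptor for the chemokines CCL1 and CCL8. Its FPKM was 51.7 and 8.41 in the WT and 0.23 and 0.24 in the KO libraries. The ratio of the means, 128, was the largest of the 9 genes with a value above 0 in the KO libraries, and the lower WT library was still 35.0 times the higher KO library. The WT libraries differed 6.15-fold, around a mean of 30.1 ± 30.6 FPKM (SD, n = 2).

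Ccl1, which encodes a ligand of CCR8, followed the same order of libraries, with 49.6 and 7.40 FPKM in the WT and 0.46 and 0.18 FPKM in the KO libraries (log2 fold change -3.97, SE 0.82, adjusted p = 0.15 by limma). Ccl8, the gene of the other ligand, overlapped between the groups, with 3.78 and 5.80 against 2.76 and 6.87 FPKM. In the list of CCR8 ligands and other chemokine receptors, 11 of 12 genes passed the filter, and 0 were called in either direction by limma (5 lower and 0 higher at an unadjusted p under 0.05). The median log2 fold change of this list was -0.80, and 8 of the 11 genes were lower without overlap, against 20.2% of all genes tested. The highest expressed receptor, Cxcr6, was at 376 and 448 against 442 and 414 FPKM and Ccrl2, a receptor that binds chemerin, at 190.02 and 187 against 177 and 155 FPKM.

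The alarmin receptors act through shared chains and kinases, of which none was called. Of 23 genes listed for alarmin and IL-9 receptor signalling, 20 passed the filter, and 0 were called in either direction by limma (1 lower and 2 higher at an unadjusted p under 0.05, median log2 fold change 0.05). None of the 20 was more than 2-fold higher in WT library 1 than in library 2. Il2rg, the common γ chain, was at 1215 and 1031 against 1073 and 1031 FPKM, Il7r, a chain of the TSLP receptor as well as of the IL-7 receptor, at 433 and 542 against 486 and 583 FPKM, and Jak1 at 209 and 215 against 196 and 185 FPKM. Of the ligands, Il33 was at 4.46 and 4.48 against 4.14 and 2.0 FPKM, and Il9, Il25 and Tslp were under 1 FPKM in every library. Of the 16 genes for signalling by IL-4, IL-13 and IL-5, 11 passed the filter and 0 were called by limma (0 at an unadjusted p under 0.05, median log2 fold change 0.02). Il4ra, the IL-4 receptor, was at 82.7 and 99.8 against 121 and 69.7 FPKM, and Il5ra and the IL-13 receptor genes Il13ra1 and Il13ra2 were under 1 FPKM in every library.

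Il1rl1 lies in a cluster of receptor genes on chromosome 1 in which 0 of 7 tested neighbours were called by limma (1 lower and 1 higher at an unadjusted p under 0.05). Without overlap, 5 of the 7 were higher, against 24.4% of all genes tested, and 1 of these, Map4k4, differed little (32.0 and 31.8 against 32.9 and 32.4 FPKM). The gene higher at an unadjusted p under 0.05 was Slc9a2, at 9.61 and 12.2 against 27.45 and 27.19 FPKM (log2 fold change 1.26, SE 0.18, adjusted p = 0.085 by limma). Il1r1, the IL-1 receptor, was at 106 and 128 FPKM in the WT and at 145 and 147 FPKM in the KO libraries. The 2 genes that follow Il1rl1, for the chains of the IL-18 receptor, were also higher without overlap. Il18r1 was at 68.5 and 74.6 against 89.2 and 86.8 FPKM and Il18rap at 47.5 and 50.34 against 52.9 and 54.3 FPKM. Il1rl2, which lies between Il1r1 and Il1rl1, overlapped between the groups, with 6.08 and 8.0 against 6.56 and 4.99 FPKM. Il1r2, which encodes the decoy receptor for IL-1, was lower without overlap, with 29.0 and 15.1 against 5.07 and 5.74 FPKM (log2 fold change -1.78, SE 0.32, adjusted p = 0.11 by limma).

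The secreted factors Calca and Areg had opposite orders in the WT libraries. Calca (7:114631478-114636357, minus strand) encodes calcitonin and, by alternative splicing, the neuropeptide CGRP, which acts on ILC2s and can also be made by them. It was at 113 and 15.9 FPKM in WT libraries 1 and 2 and at 0.88 and 0.58 FPKM in the KO libraries. Its WT mean, 64.3 ± 68.5 FPKM (SD, n = 2), was above that of 89.0% of the genes tested and the highest of the 10 genes, which rests on library 1, since in library 2 Areg (58.7 FPKM) and Arg1 (38.9 FPKM) were above it. Its KO mean of 0.73 ± 0.21 FPKM was above only 5.73% of the genes tested. The lower WT library was 18.1 times the higher KO library. Gene-level FPKM do not separate the calcitonin and CGRP transcripts.

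Areg (5:91139599-91148432, plus strand) encodes amphiregulin, a ligand of the EGF receptor that supports epithelial repair. Alone among the 10 genes it was higher in WT library 2, with 26.7 and 58.7 FPKM against 16.4 and 11.3 FPKM in the KO libraries. The step between the groups was small, 1.62-fold between the nearest libraries, and a KO mean of 13.9 ± 3.64 FPKM compared with a WT mean 3.08 times as high, 42.7 ± 22.7 FPKM (SD, n = 2). Arg1 (10:24915221-24927484, minus strand) encodes arginase 1, which splits arginine into ornithine and urea and sustains ILC2 metabolism. It was at 72.1 and 38.9 FPKM in the WT and at 8.73 and 14.4 FPKM in the KO libraries. The groups did not overlap, with 2.71-fold between the nearest libraries and means of 55.5 ± 23.5 and 11.5 ± 3.98 FPKM (SD, n = 2). Arg1 and Areg were the genes of the set that kept more than 5 FPKM in both KO libraries, and 7 of the 10 were under 1 FPKM in both.

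Among partners of CGRP, Ramp1 was called in the fit over all genes but not when low genes were kept (adjusted p = 0.091 by limma), without the trend (0.12) or with any library left out (0.18 to 0.54). Ramp1, which encodes a part of the CGRP receptor, was at 64.0 and 45.6 FPKM in the WT and at 7.26 and 9.30 FPKM in the KO libraries (log2 fold change -2.58, SE 0.23, adjusted p = 0.039 by limma). Its WT libraries differed 1.40-fold, against 7.08-fold for Calca. Of 9 genes of the calcitonin family and its receptors, 4 passed the filter, 1 fell and 0 rose (1 higher at an unadjusted p under 0.05, median log2 fold change -0.54). Calcrl, the other part of the CGRP receptor, was at 2.44 and 2.51 against 1.73 and 1.17 FPKM. Ramp3, a paralogue of Ramp1, was at 165 and 116 against 122 and 71.3 FPKM, Adm, the gene of adrenomedullin, was at 15.7 and 15.6 against 23.4 and 25.9 FPKM, and Adm2 was listed at 0 in every library.

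Genes that act with Areg and Arg1 gave no call. Of 16 EGF family ligands, sheddases and receptors, 6 passed the filter, and limma called 0 (0 at an unadjusted p under 0.05, median log2 fold change 0.11). Hbegf, another EGF receptor ligand, was at 160 and 147 against 162 and 168 FPKM, and the sheddases that release such ligands were at 27.5 and 31.4 against 31.2 and 32.3 FPKM (Adam10) and at 26.1 and 27.4 against 22.8 and 22.9 FPKM (Adam17). Of 14 genes of arginine and polyamine metabolism, 12 passed the filter, and limma called 0 (2 lower and 0 higher at an unadjusted p under 0.05, median log2 fold change -0.08). Odc1, which makes putrescine from the ornithine that arginase provides, was at 424 and 266 against 163 and 146 FPKM (log2 fold change -1.12, SE 0.24, adjusted p = 0.16 by limma). Oaz1, which encodes the antizyme that restrains Odc1, was at 1852 and 1938 against 1992 and 1812 FPKM, and Sat1, a polyamine acetyltransferase, was at 1190.05 and 983 against 1140.35 and 1014 FPKM.

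FPKM are per length and can be set side by side between genes. By WT mean the order was Calca, Arg1, Areg, Ccr8, Il17rb, Il5, Il4, Il1rl1, Il9r and Il13. Each gene's WT range overlapped that of the next except at a single step, from Il4 (9.29 ± 5.81 FPKM) to Il1rl1 (2.24 ± 2.32 FPKM, SD, n = 2), so that within the upper 7 and within the lower 3 genes neighbours in the order did not differ beyond their spread.

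Other genes associated with ILC2s lay on both sides of 0. Of 56 such genes outside the set, 48 passed the filter, of which limma called 1 lower and 0 higher (10 lower and 6 higher at an unadjusted p under 0.05). Their median log2 fold change was -0.18, 18 were lower and 13 were higher without overlap (20.2% and 24.4% of all genes tested), and 6 were more than 2-fold higher in WT library 1 than in library 2 (8.09% of all genes tested). The gene called was Ly6a, which encodes the surface antigen Sca-1, at 129 and 165 FPKM in the WT and at 18.2 and 23.8 FPKM in the KO libraries (log2 fold change -2.75, SE 0.20, adjusted p = 0.033 by limma). It was slightly lower in WT library 1, unlike 9 of the 10 genes. This call was lost when low genes were kept, when limma was run without its trend and when any library was left out.

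Among 14 ILC2 transcription factor genes that passed the filter, limma called 0 (1 lower and 1 higher at an unadjusted p under 0.05). Gata3 was at 183 and 110.0 FPKM in the WT and at 74.5 and 105 FPKM in the KO libraries (log2 fold change -0.68, SE 0.30, adjusted p = 0.44 by limma). It was lower without overlap and was chosen after its values were seen. Rora was at 784 and 613 against 723 and 486 FPKM, Id2, a factor required by all innate lymphoid cells, at 1400.46 and 1302 against 1002 and 1243 FPKM, and Lmo4, a LIM-domain cofactor, at 466 and 369 against 299 and 394 FPKM. The groups overlapped for Rora and Lmo4 and not for Id2.

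Of the other surface genes, Cd69, an activation and retention marker, was at 1046 and 1055 against 1602 and 1742 FPKM (log2 fold change 0.67, SE 0.14, adjusted p = 0.14 by limma). Of the other products, the leading ones by level were Dgat1, an enzyme of triglyceride synthesis, at 1897 and 1500.22 against 2896 and 1640 FPKM, Klf6 at 864 and 735 against 1014 and 956 FPKM, and Csf2 as given above. The genes in the next sentences were chosen after their values were seen. Klrg1, a receptor of mature ILC2s, was at 42.2 and 11.04 against 1.64 and 2.19 FPKM (log2 fold change -2.97, SE 0.59, adjusted p = 0.14 by limma), and Tph1, which makes serotonin, was at 39.7 and 3.79 against 0.66 and 0.19 FPKM (log2 fold change -3.31, SE 0.98, adjusted p = 0.26 by limma). These 2 genes, with Ccl1, Pparg and Alox5, were the 5 of 48 (10.4%, against 1.34% of all genes tested) that stepped down both from WT library 1 to 2 and from library 2 to the KO libraries. Nmur1, the receptor for neuromedin U, had the opposite order, at 8.24 and 9.88 against 25.9 and 24.04 FPKM (log2 fold change 1.37, SE 0.17, adjusted p = 0.068 by limma), as had Hpgds, which makes prostaglandin D2, at 2.31 and 6.61 against 20.6 and 19.9 FPKM (log2 fold change 2.08, SE 0.40, adjusted p = 0.13 by limma). A step down at both points was not particular to ILC2 genes. It was shown by 3 of 12 tested ILC1 and NK cell markers (25.0%) and by 1 of 9 tested T cell markers (11.1%). Of the tested genes for IL-4, IL-13 and IL-5 signalling, 1 of 11 (9.09%) showed it, and of the ILC3 markers 0 of 15.

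**Figure D4:**
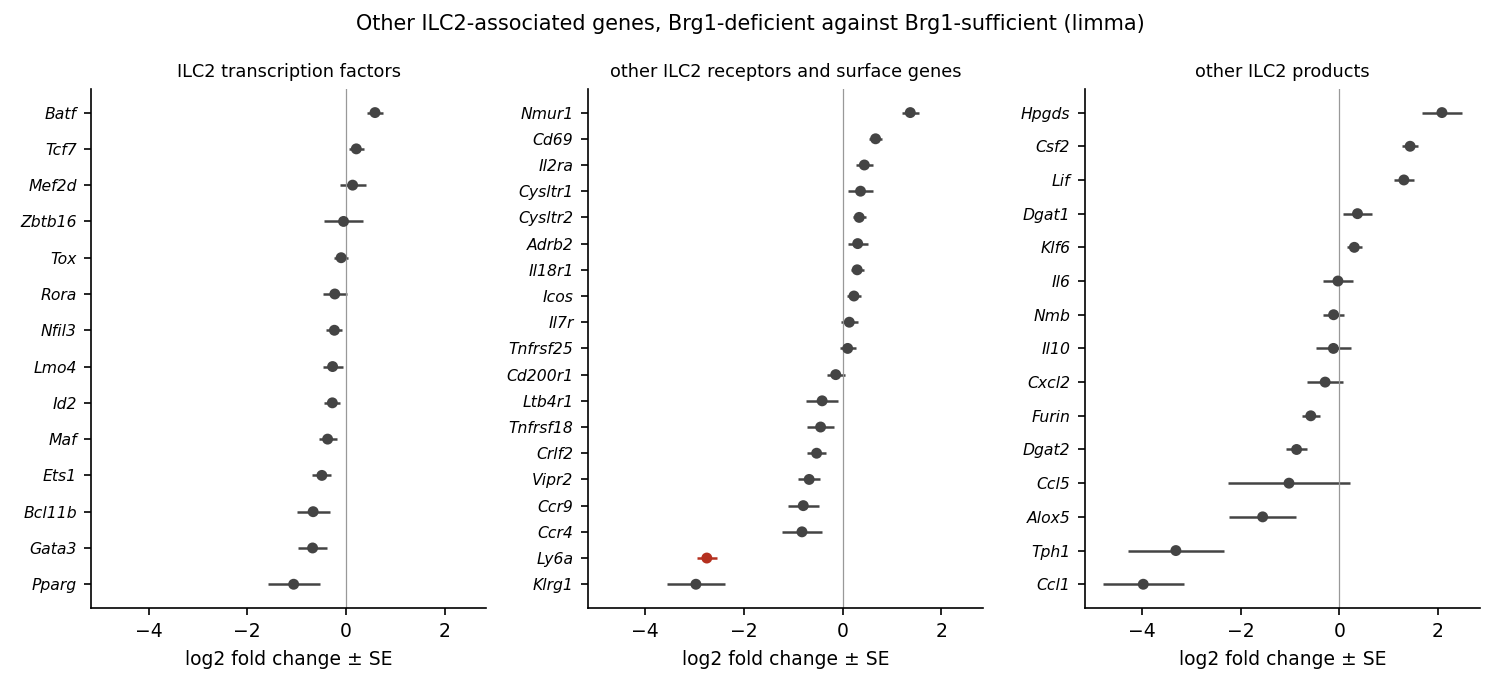
The 48 tested ILC2-associated genes outside the set, in 3 panels by role, with the log2 fold change on the log2(FPKM + 1) scale (Brg1-deficient minus Brg1-sufficient) as points and its standard error from limma as bars. Ly6a, in red, is the only gene at an adjusted p under 0.05; Klrg1, Tph1 and Ccl1 lie farther left with longer bars, and Hpgds lies farthest right.

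Markers of other cells were read in the same libraries, because some also make type 2 cytokines or share the sort gate. Of 16 mast cell and basophil markers, 4 exceeded 1 FPKM in any library, with sums of 19.7 and 17.1 FPKM in the WT and 13.7 and 15.2 FPKM in the KO libraries. Single genes named from these lists were chosen after their values were seen. The basophil protease gene Mcpt8 was at 0.62 and 0.64 FPKM in the WT libraries and was listed at 0 in the KO libraries, and Fcer1a was at 0.90 and 0.80 against 0.18 and 0.10 FPKM. Other markers of this list went the other way, Hdc with 1.07 and 1.57 against 1.59 and 1.82 FPKM and Mrgprb2 with 0.13 and 0 against 0.25 and 0.47 FPKM. Of the 3 that passed the filter, 1 was lower and 1 higher without overlap. Of 9 eosinophil markers, 1 exceeded 1 FPKM, and Epx, the eosinophil peroxidase gene, was listed at 0 in every library. Of 10 neural and enteroendocrine markers 0 exceeded 1 FPKM in any library, and of 11 epithelial markers 4 did, with sums of 12.4 and 12.6 against 25.5 and 23.5 FPKM.

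Sums of other marker lists differed between the libraries. The 12 T cell markers summed to 433 and 269.9 FPKM in WT libraries 1 and 2 and to 121 and 113 FPKM in the KO libraries, in the same order as the summed 10 genes, and 11 of the 12 exceeded 1 FPKM in some library while the donors lacked Rag1. Most of that sum came from T cell receptor constant genes, Trbc2 with 186 and 146 against 74.7 and 56.8 FPKM and Trbc1 with 110 and 62.5 against 10.6 and 10.3 FPKM, near-identical copies between which reads may be split. The fall was not limited to these copies. Of the 9 T cell markers that passed the filter, 7 were lower and 0 higher without overlap (20.2% and 24.4% of all genes tested). Their median log2 fold change was -1.09, and Cd3e, for example, was at 8.95 and 7.02 against 1.01 and 3.08 FPKM. The 14 ILC1 and NK cell markers summed to 393 and 484 against 661 and 494 FPKM. That sum holds Gzma, at 50.8 and 103 against 397 and 218 FPKM, while of the 12 that passed the filter 7 were lower and 2 higher without overlap (median log2 fold change -1.35), and Klrd1, Klra7 and Xcl1 stepped down at both points as 7 of the 10 genes did. The 14 macrophage and monocyte markers summed to 166 and 359 against 122 and 317 FPKM, the 8 B cell markers to 33.3 and 26.1 against 36.7 and 49.9 FPKM, and the 15 ILC3 markers to 10707 and 12776 against 25315 and 14048 FPKM. Of these the macrophage sum was higher in library 2 of each group. Most of the ILC3 sum was Il22 alone, at 8328 and 10408 against 21159 and 10408 FPKM. Of the 15 ILC3 markers, 6 were lower and 5 higher without overlap (median log2 fold change 0.05). At an adjusted p under 0.05, limma called 1 T cell marker (Trbc1), 1 B cell marker (Cd79b) and 2 ILC1 and NK cell markers (Ifng and Ncr1) lower, and of the ILC3 markers Ncr1 lower and Il17f higher. By the paper's account, Rag1-/- mice lacked T and B cells, and the hosts were deficient for adaptive immune cells. The T and B cell lists are therefore read here as genes and not as those cells. The part of any of these marker lists in the values of the 10 genes was not tested.

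The genes whose pattern over the 4 libraries was most like the median of the 10 genes were sought among 8082 protein-coding genes averaging more than 5 FPKM in the WT or the KO libraries. Likeness was the root mean square difference between values centred on each gene's own mean, in log2(FPKM + 1). In order they were Myl10, Ccdc30, Palld, Cd81, Tsc22d1, S100g, Bmp2, Ramp1, H2-Oa and Ctla2a, with differences from 0.11 to 0.26. Myl10, the nearest, was at 10.6 and 3.98 FPKM in the WT and at 0.39 and 0.63 FPKM in the KO libraries, and Cd81, which encodes a tetraspanin and had the highest level of these, was at 233 and 149.67 against 33.98 and 37.6 FPKM. With 4 libraries many genes look alike: 404 of the candidates had a Pearson's r above 0.95 with the median pattern, and ranking by r kept 2 of the 10 names.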

How the data were processed

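The authors aligned single-end reads of small intestinal ILC3s to GRCm38.p5 with STAR v2.5, took gene annotation from GENCODE M16, used RSEM v1.2 to estimate levels, and deposited FPKM per gene for the 4 libraries. The FPKM had near-equal distributions, as quantile normalization gives, a step the sources used here do not name. The library protocol amplified the cDNA by PCR before fragmentation and is not stated to mark strand. No counts were used, so depth is unknown.

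Libraries were grouped by the sample labels, 2 per group. The 14739 genes that averaged more than 1 FPKM in the WT or the KO libraries were fitted by limma 3.58.1 in R 4.3.3, with an eBayes trend, on log2(FPKM + 1), which understates changes of low genes, with Benjamini-Hochberg adjustment over all of them. p-values measure the spread between these libraries, and an exact permutation test of 2 against 2 cannot go below 0.33. The fit was tested on simulated data. The 10 genes and the gene lists were chosen with earlier results of these data known. Beside the 10 genes and Smarca4, the genes named were, per list, those at an adjusted p under 0.05, filled up to 3 by mean FPKM, the 10 genes most like the set, and ligands, receptors or neighbours of its members. Others are said to have been chosen after their values were seen. Positions came from GENCODE M21 (GRCm38) and promoters from the RefSeq table (GRCm38.p6), taking the start nearest to the GENCODE start. The replicate numbers are shared by both groups, but no source says that they pair libraries. Over all genes tested, the deviations of same-numbered libraries had a correlation of -0.00039. This value cannot show whether libraries pair, since most genes may carry no difference between sorts. The macrophage and monocyte sum was higher in library 2 of both groups, whereas the B cell and ILC3 sums did not follow the number.

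Alternatives were a pseudocount of 0.1, no filter, quantile normalization, no trend, the replicate number as a block, each library left out, other fold limits and another measure of likeness. The deleting allele of the Brg1-deficient donors is not reported here.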

Additional observations from a re-analysis of the deposited data

How the results depend on the processing

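For all genes, the 33 lower and 12 higher calls by limma became 0 and 0 when low genes were kept (1400 lower and 1308 higher at an unadjusted p under 0.05), 0 and 0 without the trend (965 and 903 unadjusted), and 0 and 0 whichever library was left out (509 to 1331 lower and 521 to 1489 higher unadjusted). With the replicate block they were 248 and 150, which held all 45 calls. For the 48 ILC2 genes outside the set, the 1 lower call became 0 with no filter (12 unadjusted), 0 without the trend (8 unadjusted) and 0 to 0 with a library left out (2 to 9 unadjusted), and the replicate block gave 4 lower and 4 higher. Without the filter or the trend, Ly6a had an adjusted p of 0.079 or 0.12 and Ramp1 one of 0.091 or 0.12. Without each library in turn they lost the call, at log2 fold changes from -2.94 to -2.57 and from -2.82 to -2.34. Whether the numbers pair libraries is not known. Among named genes, the calls that the replicate block added included Csf2, Odc1, Ccl1, Klrg1, Tph1, Nmur1, Hpgds, Il1r2 and Slc9a2.

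The median log2 fold change of the 10 genes was -3.28 with a pseudocount of 0.1, and 5 rather than 8 of them exceeded a 3-fold limit between the WT libraries. Uncalled named genes that changed sign when a library was left out ranged from -0.51 to 0.0604 (Rora), -0.0248 to 0.30 (Il7r), -0.0406 to 0.78 (Dgat1), -0.21 to 0.0286 (Il2rg), -0.38 to 0.41 (Il4ra), -0.0641 to 0.072 (Oaz1), -0.15 to 0.13 (Sat1), -0.0671 to 0.19 (Cxcr6) and -0.0469 to 0.56 (Irf1) on the log2 scale. The 10 genes kept their direction in the settings run. This was fixed in advance, since they were selected on this contrast and both KO libraries lay below both WT libraries for each. Depth limits the low genes most, since Il13, Il9r and Il1rl1 were near or under 1 FPKM in most libraries and the reads behind them are unknown.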
